A study of Mus musculus with 4 samples.

Results

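The primordium of the stomach was compared with that of the intestine in ICR mouse embryos at embryonic day E11.5. The comparison used 2 of the 4 arrays of a study of the embryonic gut, 1 array per organ, and left out the lung and the esophagus. Of 13822 genes that could be compared, 1704 (12.3%) lay 2-fold or more apart: 1028 were higher in the stomach and 676 in the intestine. These genes were chosen by the size of the difference alone. No organ was measured more than once, so no test was possible and each threshold below is a size.

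Both organs form from 1 tube of endoderm wrapped in mesenchyme. The foregut part gives the stomach and carries Sox2 in its epithelium and Barx1 in its mesenchyme, and the midgut and hindgut give the intestine, whose epithelium depends on the homeobox factor Cdx2. Signals such as hedgehog, Wnt, BMP, FGF and retinoic acid pass between epithelium and mesenchyme, and Hox genes mark position along the tube. At this stage the stomach lies beside the liver, the pancreatic buds and the spleen primordium.

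Both samples were untreated embryos of ICR, an outbred strain, with the day of the vaginal plug counted as E0.5. The group came from titles and tissue labels. The stomach title is spelled "gustric", and the extraction protocol given for all 4 samples speaks of stomach. Isolation used the RNeasy micro kit and Cy3 labelling the Agilent Low Input Quick Amp Kit, a protocol that amplifies small amounts of RNA. The arrays carried 1 colour each and shared 1 slide and 1 scan. The labels do not say how many embryos gave a sample. Xist, made by the inactive X chromosome, and the Y-linked genes Ddx3y, Eif2s3y, Kdm5d and Uty were all well above background on both arrays.

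A level here is the log2 of a signal divided by the 75th percentile of its array, so a level of 0 is a bright probe and levels of different probes cannot be ranked against each other. A difference is log2 stomach minus intestine. The intestine array was the brighter: 74% of its 43379 spots were well above background against 67.9% on the stomach array, its 75th percentile signal was 989 against 320, and its spike-in spots had a median of 2710 against 1627. The lowest level among probes well above background was −6.92 in the intestine and −5.77 in the stomach. A gene too dim on 1 array has a fold that is only a lower bound against that limit, written "at least N-fold". This applied to 436 genes dim in the stomach and 107 dim in the intestine. Copies of a probe on 1 array had a median SD of 0.09 in the stomach and 0.08 in the intestine, or 0.12 for a difference. That error covers spots only, and leaves out dissection, RNA and labelling.

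The organs had most of their expressed genes in common. Across the 13279 genes well above background on both arrays the levels correlated with r = 0.971, a description of 2 arrays on which genes are not independent. Genes 2-fold or more apart made up 7.44% of those compared on the stomach side and 4.89% on the intestine side, and 108 and 164 of them were lower bounds. At 4-fold the counts were 182 in the stomach (1.32%) and 194 in the intestine (1.4%), and at 8-fold they were 63 and 80. The smaller differences thus leaned to the stomach and the larger ones did not. The lean depended on the scaling. Under median centring 578 genes were higher in the stomach and 1256 in the intestine, with quantile normalization 718 and 897, with a loess curve on level 634 and 1037, and with the 75th percentile over probes bright on both arrays 1005 and 695. The median difference over all genes was 0.03 as reported. It was 0.02 with the 75th percentile over probes bright on both arrays, −0.06 with quantile, −0.09 with loess and −0.26 under median centring. Past 2-fold under all 5 scalings were 487 genes in the stomach (3.52% of those compared, 47.4% of the stomach calls) and 675 in the intestine (4.88%, 99.9% of the intestine calls). Each of the 4 other scalings moved the median difference towards the intestine, so an intestine call could hardly fail this check. Here and below, passing all 5 scalings is informative for stomach calls only.

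**Figure D1:**
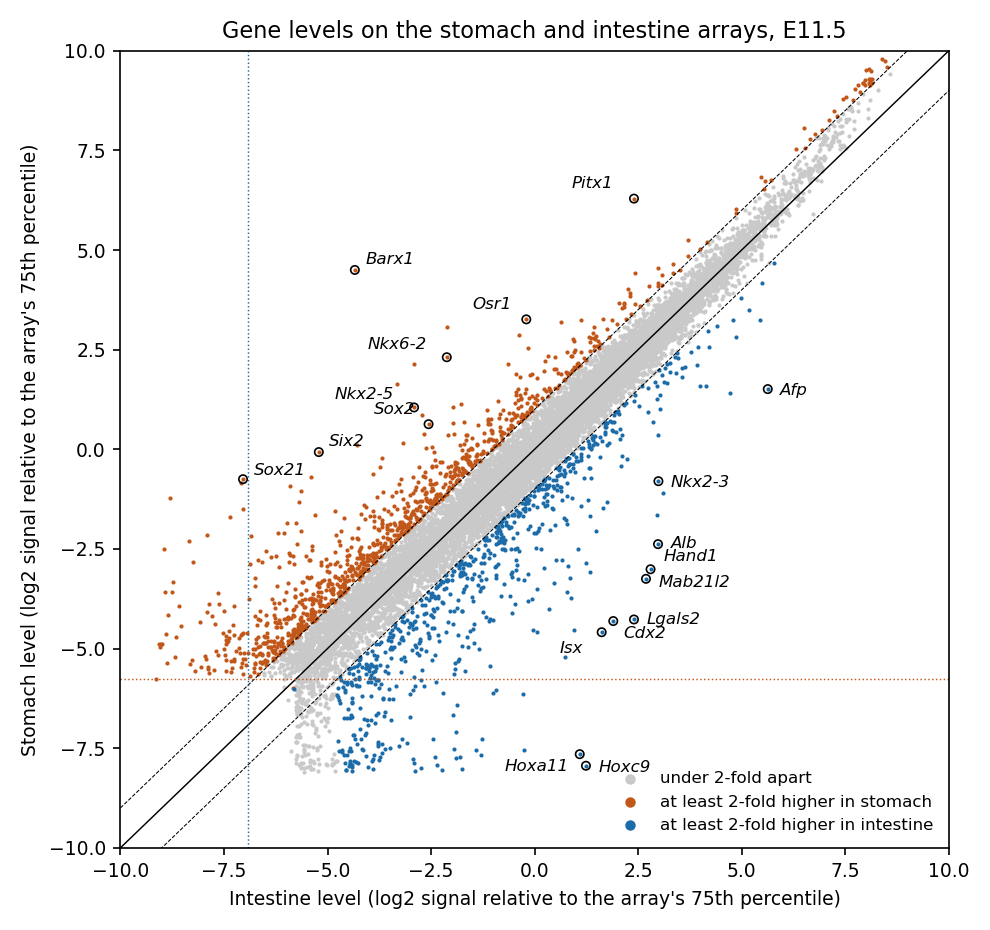
Level of each compared gene on the intestine array (x axis) and the stomach array (y axis), in log2 signal relative to the array's 75th percentile. Coloured points are the 1028 genes 2-fold or more higher in stomach and the 676 higher in intestine, dashed lines mark 2-fold, and dotted lines mark the lowest level well above background, −6.92 in intestine and −5.77 in stomach; Barx1 lies farthest above the diagonal, and Hoxc9 and Hoxa11 farthest below it.

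Dim genes were called more often. With genes divided into 5 equal groups by mean level, 27.4% were 2-fold or more apart in the dimmest group and 17.2%, 8.86%, 4.49% and 3.69% in the groups above it. In the dimmest group 487 genes were called for the stomach and 270 for the intestine, with a median difference of 0.20. The brightest group had 70 and 32. Genes at the border of the threshold had no gap between them: Inpp4a, at 2.0001-fold, was counted for the stomach and the histone gene H3c14, at 1.9998-fold, was not. On the intestine side the collagen gene Col24a1, at 2.0004-fold, was counted and Prune1, at 1.9993-fold, was not.

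**Figure D2:**
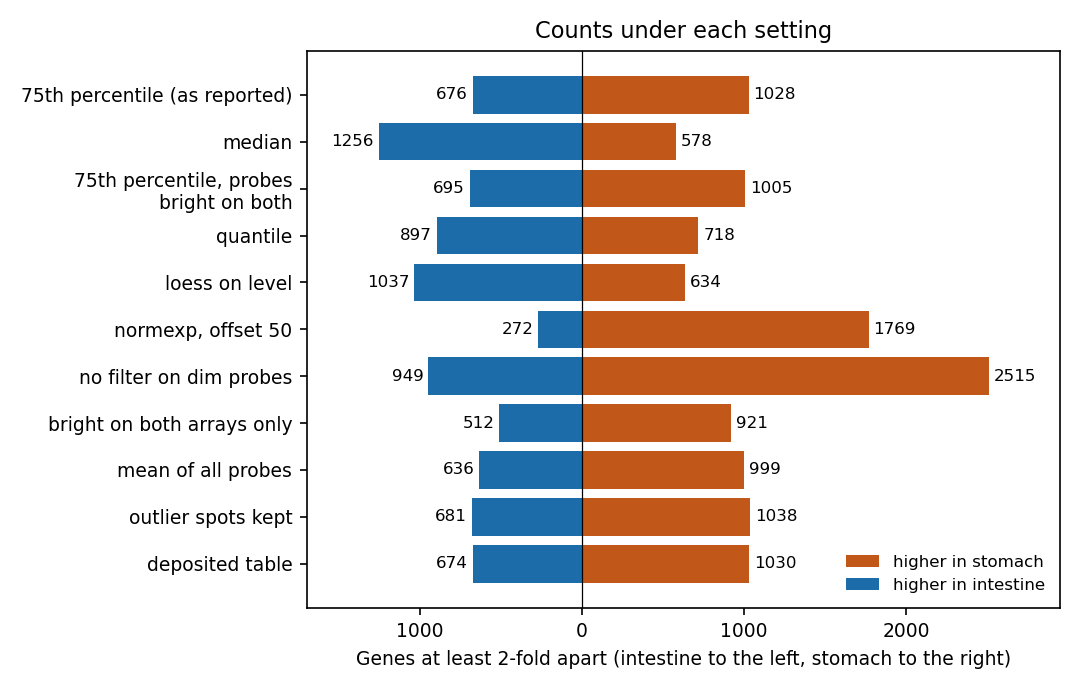
Number of genes 2-fold or more apart (x axis, to the right for stomach and to the left for intestine) under the reported setting and 10 alternatives (rows). The reported split is 1028 to 676; it turns towards the intestine under the median, quantile and loess scalings and reaches 1769 to 272 after normexp background correction.

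Several probes of 1 gene gave a check within the arrays. Of the 1704 genes, 435 had more than 1 probe with a measurable difference. In 333 of them (76.6%, exact 95% interval 72.3 to 80.5, which covers counting only) every probe lay on the same side, and in 182 (41.8%) every probe was 2-fold or more apart. The shares with every probe on 1 side were 77.1% of 279 genes in the stomach and 75.6% of 156 in the intestine. At 4-fold 74 of 81 genes (91.4%) had all probes on 1 side. Among all 4853 compared genes with several probes the share was 56.7%. Ranked by the smaller of the opposing differences, the strongest disagreements were those of Serpinc1, the gene of antithrombin (differences of 1.79 and −4.55), Fam13c (1.67 and −1.70), Ldb3, a Z-disc protein of muscle (1.35 and −1.51), and Lrba (−2.40 and 1.30). For these 4 genes the arrays gave no direction.

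**Figure D3:**
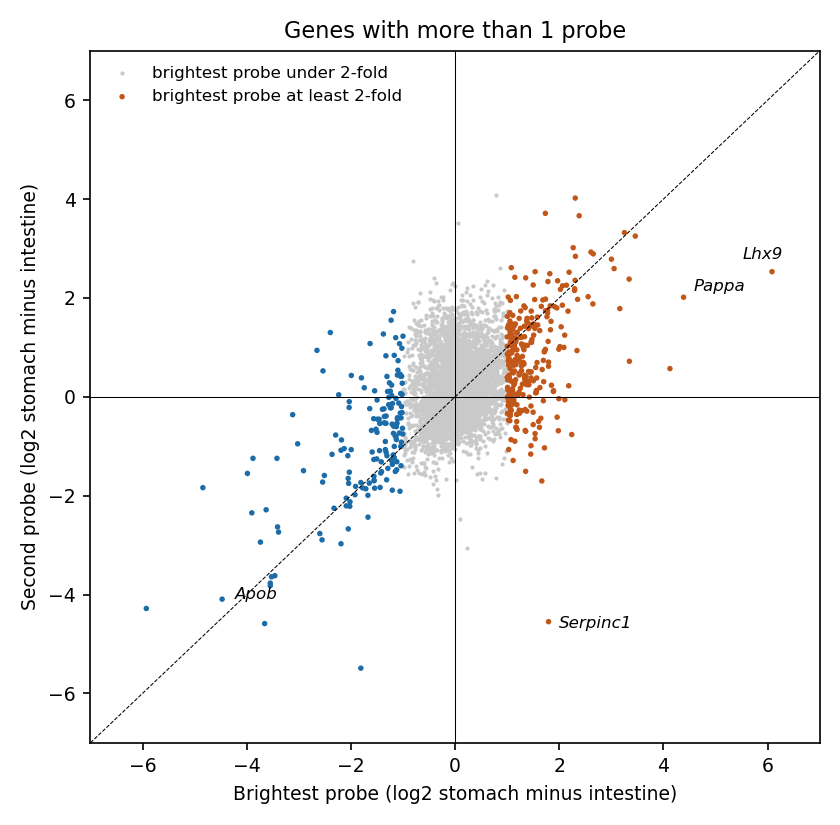
Difference between stomach and intestine (log2) by the brightest probe of a gene (x axis) and by its second probe (y axis), for genes with more than 1 probe; coloured points are genes 2-fold or more apart by the brightest probe. Points above 0 on 1 axis and below 0 on the other are genes whose probes disagree, and Serpinc1, at 1.79 and −4.55, is the farthest from the diagonal.

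Barx1, the homeobox gene of stomach mesenchyme, had the largest difference of all genes measured on both arrays. It stood at 4.50 in the stomach and −4.34 in the intestine, 458-fold higher in the stomach. With 1 array a side, a higher signal in whole tissue cannot tell more cells of a type from more RNA per cell; this holds for every gene below. Of 16 compared regulators of stomach mesenchyme, 8 were 2-fold or more higher in the stomach (7.44% of all genes were), 6 of them under all 5 scalings, and 0 were higher in the intestine (4.89% of all genes); the list's median difference was 1.02, against 0.03 over all genes. Six2, a homeobox gene of embryonic mesenchyme, stood at −0.07 and −5.21 in stomach and intestine, 35.3-fold apart. Nkx2-5, known from the heart and from the pyloric sphincter and spleen mesenchyme, stood at 1.05 and −2.91, 15.6-fold apart. Pitx1, a homeobox gene of hindlimb and posterior stomach, was bright on both arrays, at 6.29 and 2.40, and still 14.8-fold apart. The LIM homeobox gene Isl1 was 6.89-fold higher in the stomach and the nuclear receptor gene Nr2f1 3.87-fold. Meis2, at 5.40 and 5.54, and Gata5, at −3.54 and −3.78, were near equal.

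The epithelial regulators of the foregut were the list with the highest median on the stomach side. Of 16 compared, 10 were 2-fold or more higher in the stomach (7.44% of all genes were), 9 of them under all 5 scalings. In the intestine 0 were higher (4.89% of all genes), and the median was 2.07. Sox2, which keeps foregut endoderm gastric and esophageal, stood at 0.63 in the stomach and −2.56 in the intestine, 9.11-fold apart. Its relative Sox21 stood at −0.75 in the stomach and was not well above background in the intestine, at least 71.8-fold higher in the stomach. Nkx6-2, a homeobox gene, stood at 2.31 and −2.12, 21.4-fold apart. Trp63, the factor of basal cells in stratified epithelium such as the forestomach, was at least 27.3-fold higher in the stomach, the Iroquois gene Irx5 at least 11.4-fold and the pharyngeal and foregut gene Pax9 at least 9.99-fold. These 3 were well above background in the stomach only. Foxa2, a pioneer factor of endoderm, was 6.47-fold higher in the stomach, at 2.53 and −0.17, while Foxa1, at −0.09 and −0.45, and Foxa3, at −2.99 and −2.75, differed by less than 2-fold.

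Genes of differentiated gastric cells were mixed. Of 15 compared, 6 were 2-fold or more higher in the stomach (7.44% of all genes were), 4 of them under all 5 scalings, and the median was 0.27. The list's largest difference was that of Prap1, a secreted proline-rich protein that is not particular to gastric cells. It stood at 1.64 in the stomach and −3.31 in the intestine, 31-fold apart. Cldn18, a claudin of gastric epithelium, was at least 16-fold higher in the stomach, and Agr2, a disulfide isomerase of mucus cells, 10.2-fold, at 0.17 and −3.18. Vsig1, a junction protein of the stomach, was 6.25-fold higher. The genes of the acid pump, Atp4a (−5.36 and −5.48) and Atp4b (−4.57 and −4.71), and of gastrin, Gast (−3.39 and −2.99), were dim and under 2-fold apart. Pgc, for a pepsinogen, and Gkn1, for a gastric mucosal protein, were not well above background on either array. Gkn2, of the same family, was seen only in the intestine, at −4.49, at least 2.44-fold higher there.

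**Figure D4:**
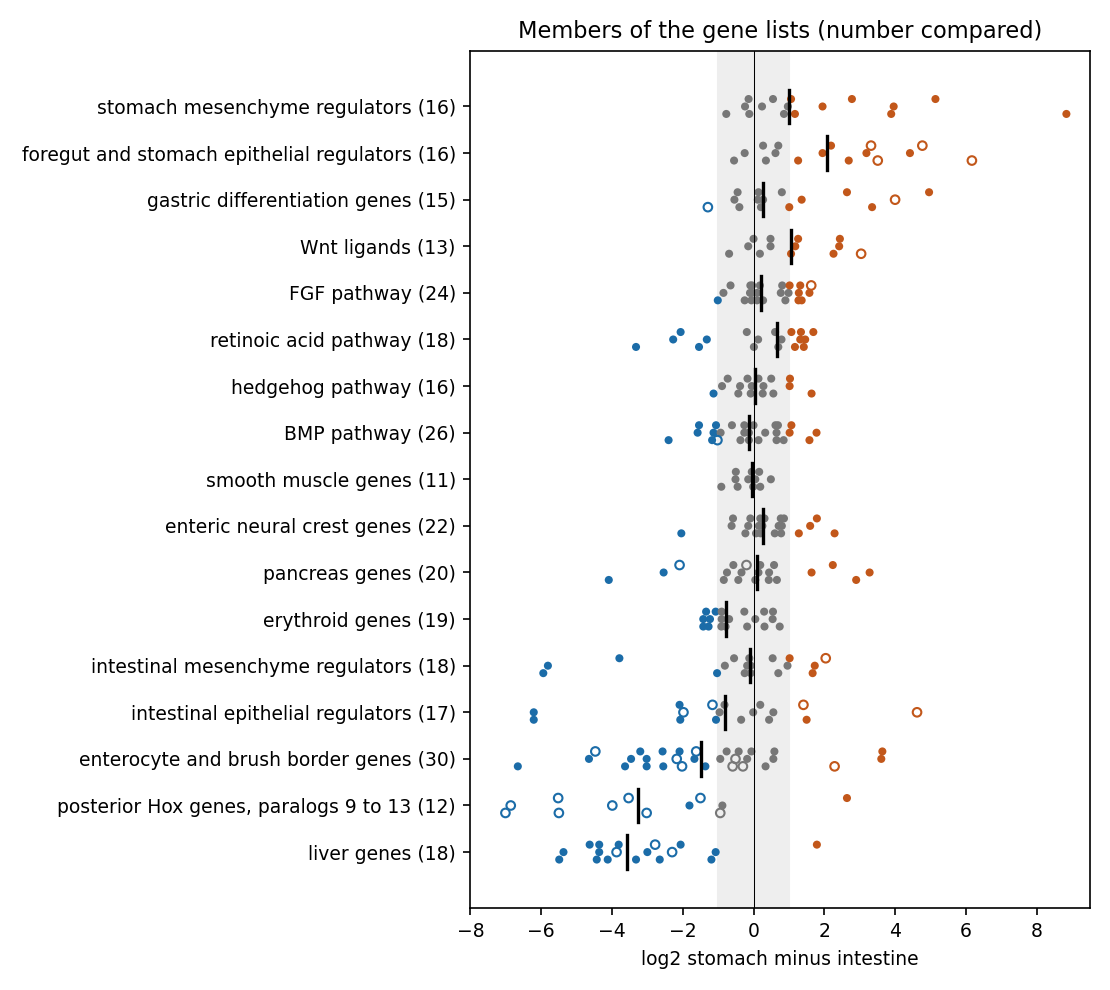
Difference between stomach and intestine (x axis, log2) of each compared member of 17 gene lists (rows, with the number compared); filled points were well above background on both arrays, open points are lower bounds, black bars are medians and the grey band is under 2-fold. The foregut epithelial list has the highest median, 2.07, and the liver list the lowest, −3.57, with the posterior Hox list at −3.28.

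Other genes with the largest differences on the stomach side came from several tissues. Lor, for the cornified envelope protein loricrin, stood at 3.08 and −2.11, 36.6-fold apart. The calcium-binding Anxa8 was 26.1-fold higher in the stomach, the transcription factor gene Dmrt2 24.3-fold, Kctd8 31.9-fold and Scrg1 17.2-fold. Pappa, a protease of insulin-like growth factor carriers, was 20.9-fold higher by its brightest probe and 4-fold or more by both of its probes (2.01 and 4.39). Inhbb, for the beta B chain of activin and inhibin, was 17.4-fold higher by its brightest probe, at −1.85 and −5.97, but its second probe gave only 0.57. Klk1b3, 15.4-fold higher, belongs to a kallikrein family of very similar genes, so its probe may read more than 1 of them. Of 4 compared heparan sulfate 3-O-sulfotransferase genes, which add rare sulfates to heparan sulfate chains, 3 were higher in the stomach under all 5 scalings. Of all compared genes, 3.52% were higher there under all 5. Hs3st3b1 stood at 2.13 and −2.91 (33-fold), Hs3st3a1 at −1.32 and −5.70 (20.8-fold) and Hs3st2 at −1.84 and −5.76 (15.1-fold), while Hs3st1, at −3.65 and −3.15, was not. Seen in the stomach only were Sim2 (at least 52.2-fold), a bHLH-PAS factor gene, the serine protease gene Fap (at least 25.5-fold), Spata4 (at least 21.6-fold) and Mlc1 (at least 17-fold).

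On the intestine side, regulators known from the epithelium were among the largest differences. Cdx2 stood at −4.31 in the stomach and 1.90 in the intestine, 73.8-fold higher in the intestine. Isx, an intestine-specific homeobox gene that represses vitamin A and carotenoid uptake, stood at −4.59 and 1.62, 74.2-fold apart. Of 17 compared regulators of intestinal epithelium, 7 were 2-fold or more higher in the intestine (4.89% of all genes were), all 7 under the 5 scalings. In the stomach 3 were higher (7.44% of all genes), 2 of them under all 5 scalings, and the median was −0.82. The nuclear receptor genes Nr5a2 (4.25-fold) and Nr1h4 (at least 3.95-fold) and the repressor gene Prdm1 (4.21-fold) were higher in the intestine. Hnf4a, a regulator of enterocytes and hepatocytes, was 2.08-fold higher there by its brightest probe, but its 2 measurable probes gave −1.06 and 0.46. Hnf4g (−4.47 and −4.46) was near equal. Other members were higher in the stomach: Atoh1, the factor of secretory cells in the intestine, was at least 24.6-fold higher in the stomach, at −2.30, and Klf4 was 2.83-fold higher, at 2.82 and 1.32. Cdx1, the partner of Cdx2, was also counted for the stomach, at least 2.66-fold higher, but did not pass all 5 scalings. It was near the limit, at −5.51 in the stomach and not well above background in the intestine. Liver also makes 7 of the 17; among the other 10, 4 were higher in the intestine and 3 in the stomach, with a median of 0.31.

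Genes of the enterocyte and its brush border were the larger group. Of 30 compared, 16 were 2-fold or more higher in the intestine (4.89% of all genes were), all 16 under the 5 scalings. In the stomach 3 were higher (7.44% of all genes), and the median was −1.49. Lgals2, for a galectin of the gut epithelium, had the largest difference on this side of all genes measured on both arrays, at −4.27 in the stomach and 2.40 in the intestine, 101-fold. Vil1, for the microvillus protein villin, stood at −2.79 and 0.67, 11-fold apart, and its 2 probes gave −3.46 and −3.62. The fatty acid carrier genes Fabp1 (25.1-fold, at −4.59 and 0.06) and Fabp2 (12.4-fold, at −3.80 and −0.17) were both higher in the intestine. Tff3, a goblet cell peptide gene, was 9.17-fold higher in the intestine, Cubn, for the cobalamin receptor cubilin, 8.09-fold, and the cadherin gene Cdh17 at least 4.5-fold. Dpp4, a brush border peptidase, was 5.87-fold higher in the intestine by its brightest probe, at −3.12 and −0.56, but its probes ran from −2.89 to 0.03. The disaccharidase genes were under 2-fold: Lct, for lactase, stood at −3.41 and −3.23, and Sis, for sucrase-isomaltase, was seen in the intestine only, at −5.47, at least 1.23-fold higher. The calcium channel gene Trpv6 (12.5-fold, at −1.65 and −5.29) and the uroguanylin gene Guca2b (12.2-fold, at −2.04 and −5.65) were higher in the stomach. Without the 7 members that liver also makes, 12 of 23 were higher in the intestine and 3 in the stomach, with a median of −1.36.

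The motif CAATAAA, a short form of the site that Cdx proteins bind, was looked for on both strands of RefSeq promoter windows (build GRCm38.p6, from 250 bases before to 50 after each start). It was in 3.04% of 658 windows of genes higher in the intestine, 2.06% of 969 windows of genes higher in the stomach, 2.56% of windows of all compared genes and 4.6% of all windows. These shares are descriptions, and a match is a string of letters, not a bound site. Fabp2 is shown because it is a brush border gene 12.4-fold higher in the intestine with a match; the window (chr3:122894977-122895043, plus strand) has the motif, on the opposite strand, in capitals.
Fabp2: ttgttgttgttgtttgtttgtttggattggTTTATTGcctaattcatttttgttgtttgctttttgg

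Among listed regulators of intestinal mesenchyme, 3 genes had large differences towards the intestine, while the list as a whole did not lean that way. The RNA came from whole tissue, so the layer that gave these signals was not measured. Mab21l2 stood at −3.25 in the stomach and 2.69 in the intestine, 61.5-fold higher in the intestine. Hand1, a bHLH factor of gut mesenchyme and heart, stood at −3.01 and 2.80, 56-fold apart. Nkx2-3, a homeobox gene of intestinal and splenic mesenchyme, was well above background in both organs, at −0.80 and 2.99, 13.8-fold apart. Of 18 compared members 4 were higher in the intestine and 4 in the stomach, beside 4.89% and 7.44% of all genes, and the median was −0.10. The other member on the intestine side was Twist2, 2.04-fold, at 1.12 and 2.15. Foxf1 (0.41 and −0.55), Foxf2 (2.24 and 2.78), Hand2 (1.61 and 1.79) and Tbx3 (2.76 and 3.02), which mark gut mesenchyme in general, were under 2-fold apart. On the stomach side were Prrx1 (3.32-fold, with 3 probes from 1.73 to 3.71), Msx2 (3.17-fold), Tbx18 (at least 4.1-fold) and Msx1. The last was 2.03-fold higher and did not pass all 5 scalings.

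Hox genes differed by paralog group and cluster. Of 12 compared genes of paralog groups 9 to 13, 9 were 2-fold or more higher in the intestine, all 9 under the 5 scalings, and 1 in the stomach. Over all genes the shares were 4.89% and 7.44%. The median of the 12 was −3.28, and 9 of the 12 were not well above background in the stomach. Hoxc9 stood at 1.24 in the intestine, at least 129-fold higher there, Hoxa11 at 1.09, at least 116-fold, Hoxa10 at −0.25, at least 45.9-fold, and Hoxd10 at −0.27, at least 45.3-fold. None of these 4 was well above background in the stomach. Hoxa13 (at least 2.84-fold) and Hoxd13 (at least 8.12-fold), genes of the hindgut end, were also seen in the intestine only. The HoxB cluster ran the other way: Hoxb8 stood at 0.68 in the stomach and −1.70 in the intestine (5.21-fold; probes at 2.38 and 3.66) and Hoxb9 at 0.02 and −2.63 (6.25-fold; probes at 1.88 and 2.64). Hoxb13, under 2-fold as a bound, was seen in the intestine only.

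Among paralogs 1 to 5, 12 of 15 lay under 2-fold apart and the median was 0.33. Hoxb1, at −1.56 and −4.83, was 9.62-fold higher in the stomach, whereas Hoxd1 was seen in the intestine only, at −4.18, at least 3.02-fold higher there. In the HoxA cluster the middle genes leaned to the stomach, with Hoxa5 2.82-fold, Hoxa6 3.28-fold and Hoxa7 3.99-fold higher, the last at 4.42 and 2.42. Next to them Hoxa9, at −0.03 and 0.85, leaned to the intestine by 1.84-fold, and Hoxa10 and Hoxa11 were seen only there. In HoxC and HoxD, all 8 compared genes of paralogs 8 to 13 were higher in the intestine, among them Hoxc8 (at least 20.4-fold) and Hoxd8 (at least 10.8-fold), whereas Hoxc4 (−2.50 and −2.53) and Hoxd4 (0.29 and 0.14) were near equal.

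**Figure D5:**
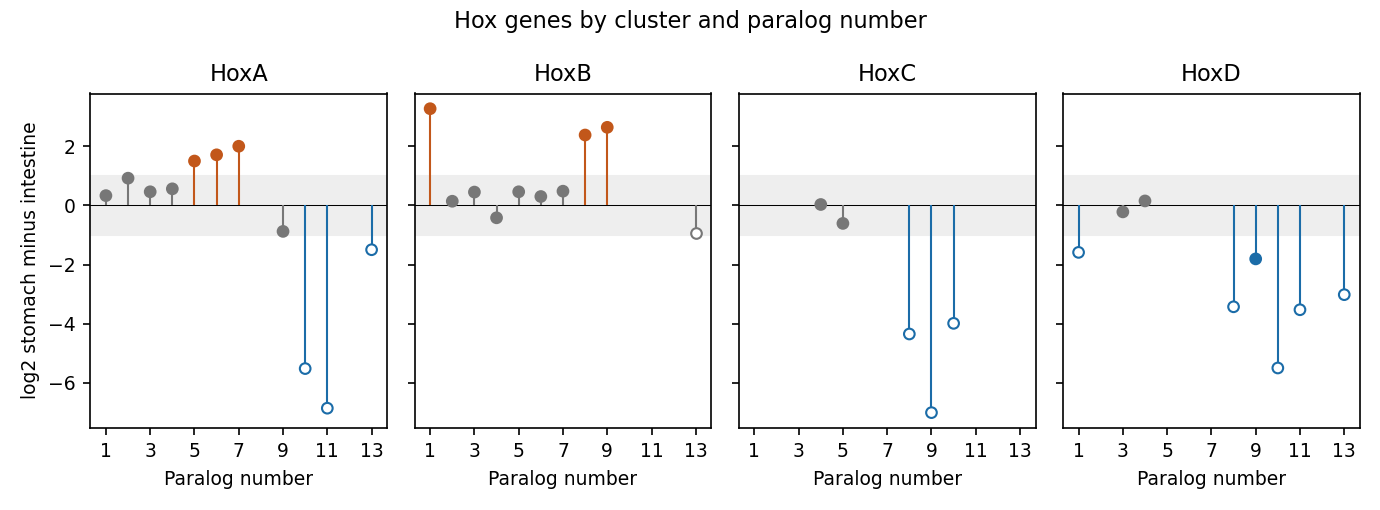
Difference between stomach and intestine (y axis, log2) of each compared Hox gene by paralog number (x axis) in the 4 clusters; open points are lower bounds and the grey band is under 2-fold. HoxA, HoxC and HoxD genes of paralogs 10 to 13 lie below 0, and Hoxb8 and Hoxb9 lie above it, at 2.38 and 2.64.

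Among the signalling pathways, Wnt ligands leaned to the stomach. Of 13 compared ligand genes, 7 were 2-fold or more higher there, 4 of them under all 5 scalings, 0 were higher in the intestine, and the median was 1.06. Over all genes the shares were 7.44% in the stomach and 4.89% in the intestine, the measure for each pathway count below. These shares are not matched for level, and dim genes were called more often, mostly for the stomach. Wnt11, a ligand of cell movement, stood at 0.35 and −2.09 (5.42-fold), Wnt2 at −2.31 and −4.73 (5.34-fold) and Wnt6 at −2.90 and −5.16 (4.79-fold); Wnt10a, at −3.88, was seen in the stomach only, at least 8.22-fold higher. Wnt5a (−1.99 and −2.46) and Wnt9a (−1.52 and −1.52) were under 2-fold apart. Of the secreted modulators, the R-spondin genes Rspo2 (4.95-fold) and Rspo1 (2.47-fold, at 4.38 and 3.07), which strengthen Wnt signals, were higher in the stomach. Dkk2, an inhibitor, was 8.71-fold higher in the intestine, at −1.48 and 1.64, and Sfrp5 2.65-fold. Of the receptors and response genes, 5 of 25 were higher in the stomach and 3 in the intestine. Sp5 (9.7-fold), Lgr5 (4.56-fold) and Lef1 (3.59-fold), which Wnt signals switch on or use, and the receptor gene Fzd5 (3.56-fold) were higher in the stomach, and Fzd8 (3.14-fold) and Fzd10 (2.37-fold) in the intestine. Axin2, the most used readout of the pathway, was near equal, at −1.78 and −1.66.

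BMP genes lay past 2-fold on both sides. Of 26 compared, 7 were 2-fold or more higher in the intestine (4.89% of all genes were), all under the 5 scalings. On the stomach side were 4 (7.44% of all genes), 2 of them under all 5, and the median was −0.13, against 0.03 over all genes. The ligand genes Bmp4 (0.43 and 1.97, 2.91-fold), Gdf6 (2.99-fold) and Bmp5 (2.25-fold), and with them the antagonist gene Grem1 (−1.36 and −0.30, 2.08-fold), were higher in the intestine. Higher in the stomach were the target gene Id4 (3.42-fold; probes at 1.70 and 1.78), the receptor gene Bmpr1b (2.98-fold) and the ligand gene Bmp7 (2.1-fold). Id1, Id2, Id3, Smad6 and Smad7, which BMP signals induce, were all under 2-fold apart.

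In the hedgehog pathway the ligand genes differed little: Shh stood at −1.36 and −0.63 and Ihh at −0.60 and −1.16. The receptor and target gene Ptch1 was 3.11-fold higher in the stomach, at 0.78 and −0.86, while the targets Gli1 (−1.31 and −1.45) and Hhip (−0.09 and −0.37) were near equal. Of the 16 members, 3 were higher in the stomach (7.44% of all genes were), 1 of them under all 5 scalings. In the intestine 1 was higher, Dhh (4.89% of all genes were). Of 24 FGF pathway genes 7 were higher in the stomach, 3 of them under all 5 scalings, and 1 in the intestine, Fgfr4 (2.01-fold). Fgf10, the mesenchymal ligand needed for stomach growth, stood at 0.26 and −1.06, 2.5-fold higher in the stomach, and Spred1, an inhibitor, was 2.99-fold higher with probes at 1.58 and 1.61. Etv5 was 2.56-fold higher by its brightest probe, but its probes disagreed (−0.70 and 1.36). Notch genes showed 2 of 19 higher in the intestine, Hey2 (at least 2.49-fold) and Jag1, whose probes disagreed (−1.31 and 0.41), and 0 in the stomach.

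Retinoic acid genes went both ways, and the sides did not follow the steps of the pathway throughout. Of 18 compared, 7 were higher in the stomach, 5 of them under all 5 scalings, and 5 in the intestine, all under the 5 scalings. The enzymes that make the acid were mostly higher in the intestine: Aldh1a1 stood at −0.16 and 2.11 (4.82-fold), Aldh1a2 at 4.16 and 5.48 (2.5-fold) and Rdh10 at −1.88 and 0.17 (4.17-fold; probes at −2.06 and −1.19). So were the degrading enzyme gene Cyp26b1 (2.9-fold) and the retinol carrier gene Rbp4 (9.96-fold), which is also a liver gene. Aldh1a3 was the synthetic enzyme gene higher in the stomach, 3.23-fold, at the low levels of −3.75 and −5.44. The receptor and target gene Rarb (2.68-fold, at 2.79 and 1.36), the acid-binding protein genes Crabp2 (2.74-fold) and Crabp1 (2.5-fold) and the reductase gene Dhrs3 (2.54-fold; probes at 1.04 and 1.34) were higher in the stomach.

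Structural genes of the gut wall differed by list, and those of smooth muscle differed little. Of all compared genes 7.44% were 2-fold or more higher in the stomach and 4.89% in the intestine. Of 11 smooth muscle genes 0 were 2-fold apart; Actg2 stood at 3.63 and 3.68, Myh11 at −1.56 and −1.74, and Acta2 at 5.49 and 5.01, though the 3 probes of Acta2 disagreed in direction. Of 30 matrix genes 7 were higher in the intestine, all under the 5 scalings, and 2 in the stomach. Col9a1 (9.26-fold, at −2.98 and 0.23), Postn, for periostin (5.68-fold, at −0.42 and 2.08), and Lum, for lumican (3.38-fold, at 1.81 and 3.57), were higher in the intestine, and Tnc, for tenascin C, was 4.54-fold higher in the stomach by its brightest probe with a second probe at 0.22. Tight junction and epithelial keratin genes had 7 of 23 members past 2-fold in the stomach, but 0 of these held under all 5 scalings. Among its members Epcam, a pan-epithelial gene, stood at −0.07 and 0.16, and Cdh1, for E-cadherin, at −0.10 and −0.62. Of 22 enteric neural crest genes 4 were higher in the stomach, 3 under all 5 scalings, and 1 in the intestine. The receptor genes Erbb3 (4.9-fold, 3 probes from 1.86 to 2.29), Gfra1 (3.46-fold) and Ret (2.42-fold) were higher in the stomach, and the ligand gene Edn3 (4.12-fold) in the intestine. Tubb3 (1.52 and 1.28), a neuronal tubulin gene, was near equal.

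Genes of the liver were higher on the intestine array as a group. Of 18 compared liver genes, 17 were 2-fold or more higher in the intestine (4.89% of all genes were), all 17 under the 5 scalings. The list's median was −3.57, the lowest of the 34 lists, and its differences ran from −5.49 to 1.79. The summed signal of the 18, in units of the array's 75th percentile, was 29.1 in the stomach and 160 in the intestine. Alb, for albumin, stood at −2.38 and 2.98 (41.3-fold), Ahsg, for fetuin A, at −4.53 and 0.96 (44.9-fold), and Afp, for alpha-fetoprotein, which yolk sac also makes, at 1.51 and 5.63 (17.4-fold). The fibrinogen genes Fgg (24.8-fold), Fgb (21.5-fold) and Fga (at least 4.93-fold), the thrombin gene F2 (20.6-fold) and Apoa2 (20.6-fold) were all higher in the intestine, and of these Fga alone was not well above background in the stomach. Ttr, for transthyretin, stood at −2.92 in the intestine, at least 6.88-fold higher there. Serpinc1 is the member whose probes disagree. How far liver tissue enters the samples was not tested, and neither was its part in the enterocyte and serum protein differences.

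Liver-type serum proteins supplied much of the remaining top of the intestine side. Serpina6, for the cortisol carrier, was 24.3-fold higher in the intestine, at −1.65 and 2.95, and Serpind1, for heparin cofactor II, 22.4-fold. Beside the family counts that follow, 4.89% of all genes were higher in the intestine and 7.44% in the stomach. Of 25 compared serpin genes of every class, not only serum proteins, 11 were higher in the intestine. The 1 counted for the stomach, by its brightest probe, was Serpinc1, whose probes disagree and give no direction. Of 10 apolipoprotein genes 6 were higher in the intestine and 0 in the stomach: Apob stood at −1.30 in the intestine, at least 22.2-fold higher, with 3 probes from −4.47 to −1.72, whereas Apoe (3.38 and 3.51) was near equal. Of 4 compared serum amyloid A genes 3 were higher in the intestine: the acute-phase genes Saa1 (6.05-fold), Saa2 (5.3-fold) and Saa3 (6.37-fold). Saa4 was under 2-fold apart as a bound, at −5.39 in the intestine and at least 1.3-fold higher there. The sequences of Saa1 and Saa2 are so alike that their probes may read both. Seen in the intestine only were Gc, for the vitamin D carrier (at least 27.2-fold), Spp2 (at least 22.6-fold), Clrn3 (at least 16.3-fold) and Cyp2c40 (at least 28.7-fold by its brightest probe and −1.84 by the other), which belongs to a cytochrome family of near-identical genes.

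Motifs of 4 other factor families are given for the same windows and both strands. The GATA motif AGATAAG was in 4.1% of windows of genes higher in the intestine, 1.44% on the stomach side and 2.08% of all compared windows. The FOXA motif TGTTTAC was in 4.41%, 2.37% and 2.68%, the HNF4 motif CAAAGTCCA in 0.608%, 0.206% and 0.421%, and the SOX motif ACAATGG in 2.43%, 2.48% and 2.17%. In windows, the intestine and stomach counts were 27 and 14 for GATA and 29 and 23 for FOXA. For HNF4 they were only 4 and 2, and for SOX 16 and 24. Over all windows the shares were 3.04% for GATA, 3.65% for FOXA, 0.475% for HNF4 and 3.66% for SOX. Cdx2 is shown because it is the defining regulator of the intestinal list and has a FOXA match 40 bases before its start; capitals mark it, on the opposite strand, in the window at chr5:147307253-147307319, minus strand.
Cdx2: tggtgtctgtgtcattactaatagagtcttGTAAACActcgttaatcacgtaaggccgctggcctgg

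Markers of other neighbours did not all point 1 way. Of 20 pancreas genes 4 were higher in the stomach and 3 in the intestine, each under all 5 scalings, beside 7.44% and 4.89% of all genes. Mnx1 (9.73-fold, at −0.62 and −3.91), Nkx6-1 (7.46-fold, at 1.13 and −1.77) and the glucagon gene Gcg (3.12-fold) were higher in the stomach, and the carboxypeptidase gene Cpa1 (17-fold, at −2.85 and 1.24), the gut hormone gene Pyy (5.82-fold; probes at −2.54 and −1.72) and the acinar factor gene Ptf1a (at least 4.25-fold) in the intestine. Pdx1, of pancreas and duodenum, stood at −3.65 and −4.08. The summed signal of the pancreas list was 9.19 in the stomach and 8.87 in the intestine. How far pancreas enters either sample was not tested.

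Tlx1, the homeobox gene of the spleen primordium, stood at −1.71 in the stomach and was not well above background in the intestine, at least 37-fold higher in the stomach. Of the 13 spleen and mesothelium genes 4 were higher in the stomach and 2 in the intestine, beside 7.44% and 4.89% of all genes. Osr1, a gene of splanchnic mesoderm, stood at 3.26 and −0.20 (11-fold; probes at 3.25 and 3.46), and Msln, for mesothelin, was 7.36-fold higher in the stomach, while the mesothelial genes Upk1b (4.01-fold) and Upk3b (2.71-fold) were higher in the intestine and Wt1 (1.05 and 0.53) was under 2-fold apart. The list's summed signal was 26.6 and 18.5, and the part of spleen tissue in the stomach values, Nkx2-5 included, was not tested. Lhx9, known from gonad and limb, was at least 67.8-fold higher in the stomach by its brightest probe and 2.53 by the other, whereas the gonad gene Nr5a1 (−3.21 and −4.04) and the kidney gene Pax2 (−4.50 and −5.20) were dim and under 2-fold apart.

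The lung factor gene Nkx2-1 and the surfactant genes Sftpc and Sftpb were not well above background on either array. Tbx5, a factor of heart, lung and forelimb, stood at −1.49 in the stomach and was at least 43-fold higher there. Beside the muscle counts that follow, 7.44% of all genes were higher in the stomach and 4.89% in the intestine. Heart muscle genes had 4 of 13 higher in the stomach, 1 of them under all 5 scalings, and 3 in the intestine: Myh7 was 4.4-fold higher in the stomach (probes at 2.14 and 2.26), and Actc1 (3.42-fold) and Myl3 (4.1-fold; probes at −2.03 and −0.22) in the intestine. Of 9 skeletal muscle genes, Myh8 was higher in the stomach (at least 13.6-fold) and Acta1 (2.84-fold) and Myl1 (2.3-fold) in the intestine, while Myod1 and Myog were dim and near equal.

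Among blood genes some regulators were past 2-fold in the intestine, and 3 embryonic globins leaned to the stomach by less than 2-fold. Of 19 erythroid genes, 6 were higher in the intestine, all under the 5 scalings, and 0 in the stomach, with a median of −0.79. These 6 were regulators and membrane genes such as Klf1 (2.67-fold), Rhag (2.67-fold) and Gata1 (2.41-fold), of which Rhag and Gata1 changed side under normexp. The embryonic globin genes Hbb-y (7.64 and 6.90), Hbb-bh1 (6.22 and 5.68) and Hba-x (6.31 and 5.77) were 1.68-fold, 1.45-fold and 1.46-fold higher in the stomach, and the summed signal of the list, made up mostly of globins, was 513 in the stomach and 363 in the intestine. Hbb-bt, a globin gene outside the list, leaned to the intestine by its 2 brightest probes (−0.178 and −0.415). Of 20 endothelial genes 2 were higher in the intestine and 1 in the stomach, near the shares of all genes (4.89% and 7.44%): Lyve1 (5.01-fold; probes at −2.32 and −2.25) and Tek (3.29-fold) in the intestine and Esm1 (3.31-fold) in the stomach. Pecam1 (−0.94 and 0.04), Cdh5 (0.62 and 1.06) and Kdr (1.70 and 2.18) were under 2-fold apart. Lyve1 was also the 1 gene past 2-fold among 17 macrophage genes.

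Genes of growth and handling were close. Of 28 cell cycle genes 27 were under 2-fold apart and the median was 0.03; Cdk1 was 2.15-fold higher in the intestine, with both probes at −1.11, and Top2a (2.91 and 2.96) and Mcm6 (6.28 and 6.34) were near equal. Of 19 stress and hypoxia genes 18 were under 2-fold apart, and Atf3 was 2.53-fold higher in the intestine. Fos stood at −5.15 and −5.70, Jun at 2.55 and 1.77, and the hypoxia genes Vegfa at 0.79 and 0.63 and Slc2a1 at 2.89 and 3.03. The 5 sex-linked genes were all under 2-fold apart.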

How the data were processed

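Total RNA of 1 stomach and 1 intestine primordium sample was read on Agilent arrays (design 014868, build mm8, Feature Extraction 10.5.1.1, protocol GE1_105_Dec08, per the file headers). The deposited scanner files give the authors' processed signal, a linear intensity after background subtraction, with no scaling from array to array. A deposited table of log2 values served as an alternative. Set against the scanner values it tracked them after division by the 75th percentile (r of 0.99996 and 0.99998, medians −3.17 and −3.47), and nothing else states its scale, centring or direction.

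Each array's log2 processed signal was centred on its 75th percentile over non-control probes. Outlier-flagged spots were dropped, which removed 40 probes, and the remaining copies were averaged. Of 41134 probes, 24353 (59.2%) had 1 symbol by matching accessions to RefSeq genes of GRCm38.p6, and 16781 stay unnamed. Of 17002 genes, 14397 passed background on 1 or both arrays and 13822 could be compared; 575 allowed no fold. The brightest measurable probe stood for a gene. For a bound, the dim array was set at its lowest level well above background, or at the probe's own value where higher, and list medians take bounds at that value.

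Genes and 34 gene lists (652 genes, 570 compared) were chosen with earlier results of these data known, and the families of sulfotransferases, serpins, apolipoproteins and serum amyloids after their values were seen. Named each way are the 15 largest differences measured on both arrays and the 10 largest bounds, given a symbol that is no clone name, 2-fold or more under 5 scalings and all probes on 1 side. From each list up to 6 members of largest difference and those that define it are named, and the 4 genes whose probes oppose each other most, ranked by the smaller of the opposing differences. Some genes that fall under these rules, and 1 motif searched, are not reported here. List members named as near equal were chosen after their values were seen. Alternatives were 4 other scalings, normexp with an offset of 50, 2 filters on dim probes, the mean of all probes, outlier spots kept and the deposited table. The planned normexp takes a mean signal; median signals were used in its place. Python 3.11.15, pandas 2.3.3, scipy 1.17.1, statsmodels 0.14.6, R 4.3.3 and limma 3.58.1 were used, and the counting was tested on simulated data.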

Additional observations from a re-analysis of the deposited data

How the results depend on the processing

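With 1 array a side the results have no replicate check, and dim genes carry most calls. No paired analysis was possible because each organ has 1 sample. Of 234 named or listed genes past 2-fold, 162 stayed past it in the same direction under all 10 alternatives, and 10 changed side in at least 1. Not every alternative gave each gene a value. With only probes bright on both arrays 186 of the 234 had one, and with normexp 220. Under either filter on dim probes 0 genes with a value fell under 2-fold. By their construction these 2 filters could hardly lower a fold, and the scalings could hardly fail an intestine call. Genes 2-fold or more higher in stomach (1028) and intestine (676) numbered 578 and 1256 under median centring, 634 and 1037 with loess on level, 1769 and 272 with normexp, and 2515 on the stomach side with no filter on dim probes. At 4-fold (182 and 194) the stomach count was 120 under median centring and 111 with loess; both counts were 62 and 50 with normexp and 295 and 300 with no filter. Past the threshold under all 5 scalings, chosen after seeing the data, were 487 stomach genes at 2-fold and 100 at 4-fold. Genes with all probes on 1 side (76.6%) were 85.6% with normexp. The offset of 50 added by normexp lies above the stomach array's median signal of 35.6 and below the intestine's 89.4; whether that causes the shift was not tested. Under normexp 6 genes higher in the intestine changed side: Atf3 (0.10), Bmp3 (0.39), Foxj1 (0.27), Gata1 (0.01), Myl3 (0.08) and Rhag (0.08). With the mean of all probes Fam13c (−0.02), Hhat (−0.02), Ldb3 (−0.08) and Serpinc1 (−1.38) changed side, by construction, as their probes disagree.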
